A study of Mus musculus and Rattus norvegicus with 11 samples.

Results

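Transcripts of 8 genes of cholesterol synthesis and its control (Hmgcs1, Idi1, Fdps, Fdft1, Sqle, Cyp51, Msmo1 and Insig1) were followed through single cells of peripheral nerve. The genes were chosen by symbol, and all 8 were found among the 31053 genes counted in mouse and the 32883 counted in rat. Mouse nerves, the sciatic nerve and brachial plexus, were digested with enzymes, depleted of myelin and sorted for live cells. There were 3 libraries of C57BL/6 mice (numbered 1, 3 and 4), 3 of NOD control mice (1, 2-1 and 2-2) and 3 whose background is written ICAM-1-1/-NOD, a spelling taken here as an Icam1 knockout on NOD. The series was designed to describe healthy nerve in C57BL/6 mice and rats and chronic autoimmune neuritis in the NOD mice. Rat sciatic nerve cells of naive Lewis rats, in 2 libraries, came from a density gradient with no sort. The sources used here give no age, sex, disease stage or number of animals behind a library. Libraries 2-1 and 2-2 share a number and were summed as NOD control 2, so the NOD comparison set 2 samples against 3. Because separate animals are not stated, p-values measure the spread between these samples only.

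Cholesterol is built from acetyl-CoA through mevalonate, then isoprenoid diphosphates, then squalene and finally the sterol ring. When membranes of the endoplasmic reticulum run low in sterol, the transcription factor SREBP is released, cut and carried to the nucleus, where it switches on the enzymes of the pathway. INSIG proteins hold the SREBP escort SCAP in place while sterol is plentiful, and INSIG1 is itself an SREBP target. In nerve, Schwann cells that wrap axons make most of the cholesterol of their own myelin, and sterol genes are known to be high while myelin is made.

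The members follow that order. Hmgcs1 (chr13:119690379-119708260, plus strand, GRCm38) condenses acetyl units into HMG-CoA. Idi1 (chr13:8885501-8892451, plus strand) interconverts the isoprenoid units, and Fdps (chr3:89093588-89101959, minus strand) joins them into farnesyl diphosphate. Fdft1 (chr14:63145150-63179578, minus strand) makes squalene, and Sqle (chr15:59315077-59331192, plus strand) adds the oxygen that permits ring closure. Cyp51 (chr5:4081145-4104746, minus strand) and Msmo1 (chr8:64718139-64733792, minus strand) remove methyl groups from the ring. Insig1 (chr5:28071363-28078662, plus strand) encodes the sterol-responsive anchor of SCAP. The spans are those of GENCODE M21 genes. Fdps shares its strand with the counted gene model Gm43738, so reads of that pair could be split, and Hmgcs1, Fdft1 and Cyp51 lie against Gm48342, Ctsb and Akap9 on the other strand.

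Promoter sequence is shown for a synthesis enzyme and for the controller, because both are known SREBP targets and they differ in the data below. RefSeq windows of GRCm38.p6, from 250 bases before to 50 after a gene's start, were at hand for 5 of the 8 members (Hmgcs1, Idi1, Cyp51, Msmo1 and Insig1). Only the stretch before the annotated gene is printed, 5′ to 3′ on the gene's strand. Capitals mark TCACNCCA, an SREBP motif, CCAAT, the NF-Y motif, and GGGCGG, an Sp1 motif, searched on both strands, so that ATTGG and CCGCCC are matches on the opposite strand. No match overlapped another in these stretches. The Hmgcs1 stretch is chr13:119690101-119690350 and that of Insig1 is chr5:28071162-28071362, both on the plus strand.
Hmgcs1: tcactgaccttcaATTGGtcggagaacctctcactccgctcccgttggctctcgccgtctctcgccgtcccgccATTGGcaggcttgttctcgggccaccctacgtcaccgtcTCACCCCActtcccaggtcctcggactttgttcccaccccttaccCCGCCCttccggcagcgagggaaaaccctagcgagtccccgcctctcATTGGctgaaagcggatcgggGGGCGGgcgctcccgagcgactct
Insig1: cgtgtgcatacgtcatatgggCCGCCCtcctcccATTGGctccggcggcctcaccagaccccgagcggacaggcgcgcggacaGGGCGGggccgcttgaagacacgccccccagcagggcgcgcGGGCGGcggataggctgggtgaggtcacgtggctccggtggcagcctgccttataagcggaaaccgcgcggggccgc
TCACNCCA occurred in 2 of the 5 member windows, as TCACCCCA at position -137 from the RefSeq start of Hmgcs1 and as TCACTCCA at -177 in Msmo1, and in 4.36% of all 32851 windows of 300 bases. CCAAT was in 5 of 5 member windows and 37.4% of all, and GGGCGG in 5 of 5 and 35.7%. A match describes letters in this window and is not evidence of binding.

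Cell type names and abbreviations are printed as the authors' annotation gives them. Annotated barcodes were 15672 of 16050 in mouse and 12360 of 12500 in rat. Libraries held 571042 to 6631004 unique molecule (UMI) counts in mouse and 17958844 and 19074026 in rat, with median counts per barcode of 591 to 1530 and 2647 to 2670. Barcode sequences found in more than 1 library numbered 162 in mouse and 59 in rat. Icam1 transcripts stood at 51.1 and 94.5 counts-per-million (CPM) over all annotated cells of the NOD controls and at 248, 262 and 255 CPM in the 3 libraries labelled knockout. The transcript was not lower in them. The sources used here do not say which part of the gene was deleted, so these 3′ reads do not check the label, and directions below are those of the libraries labelled Icam1 knockout.

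The 8 genes were highest in the cells annotated mySC and nmSC, the authors' myelinating and nonmyelinating Schwann cells. Levels here are CPM of UMI counts summed per sample and type, given as mean ± SD over samples with at least 20 such cells. The sum of the 8 genes in C57BL/6 was 958 ± 254 CPM in nmSC (n = 3) and 869 ± 147 in mySC (n = 2), then 699 ± 400 in PC (n = 2). It was 486 CPM in the single MC sample. These first ranks do not differ beyond their spread, since the 3 nmSC samples ran from 664 to 1110, the mySC samples were 766 and 973, and the PC samples 416 and 982.

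Below them lay 6 types whose sample ranges overlapped in every pair. BC had 247 ± 95.9 CPM, MP 242 ± 60.5, EC1 241 ± 125, TC 211 ± 50.8 and fibro 189 ± 58.2 (n = 3 each), and vSMC 239 ± 21.9 (n = 2). The 1 lymph sample had 96.4 CPM, below every sample of these 6 types. C57BL/6 fibro, the annotated fibroblasts, thus sat far under nmSC, with no overlap of their samples' ranges.

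In NOD control the order began with mySC at 2558 ± 917 CPM (1909 and 3206) and nmSC at 1398 ± 282 (1199 and 1598). CD8 (692), vSMC/PC (596) and EP (525) followed with 1 sample each, then MC at 473 ± 44.3, CD4 at 347 ± 65.6, EC at 268 ± 33.3, BC at 264 in 1 sample and fibro at 262 ± 54.7. In the libraries labelled knockout nmSC had 607 ± 127 CPM (739, 597 and 486) and mySC 578 ± 299 (893, 297 and 545), neighbours that overlapped. There pDC had 370 CPM in 1 sample, followed by EC at 296 ± 41.6, MC at 282 ± 36.6, CD4 at 218 ± 20.8, CD8 at 201 ± 51.4 and BC at 159 ± 13.9 (n = 3 each).

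In rat the sum in nmSC was 1450 and 1308 CPM, above every other type. MHC II APC followed at 570 ± 0.707, fibro at 472 ± 28.7, PF4 MC at 461 ± 9.83, vascular EC at 318 ± 37.1, microvasculatory EC at 298 ± 23.9, BC at 221 ± 57.1 and TC at 191 ± 31.3 (n = 2 each). Fibro and PF4 MC, and the pair of endothelial types, did not differ beyond their spread. All these orders are descriptions, because the types were drawn from the same cells' expression.

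**Figure D1:**
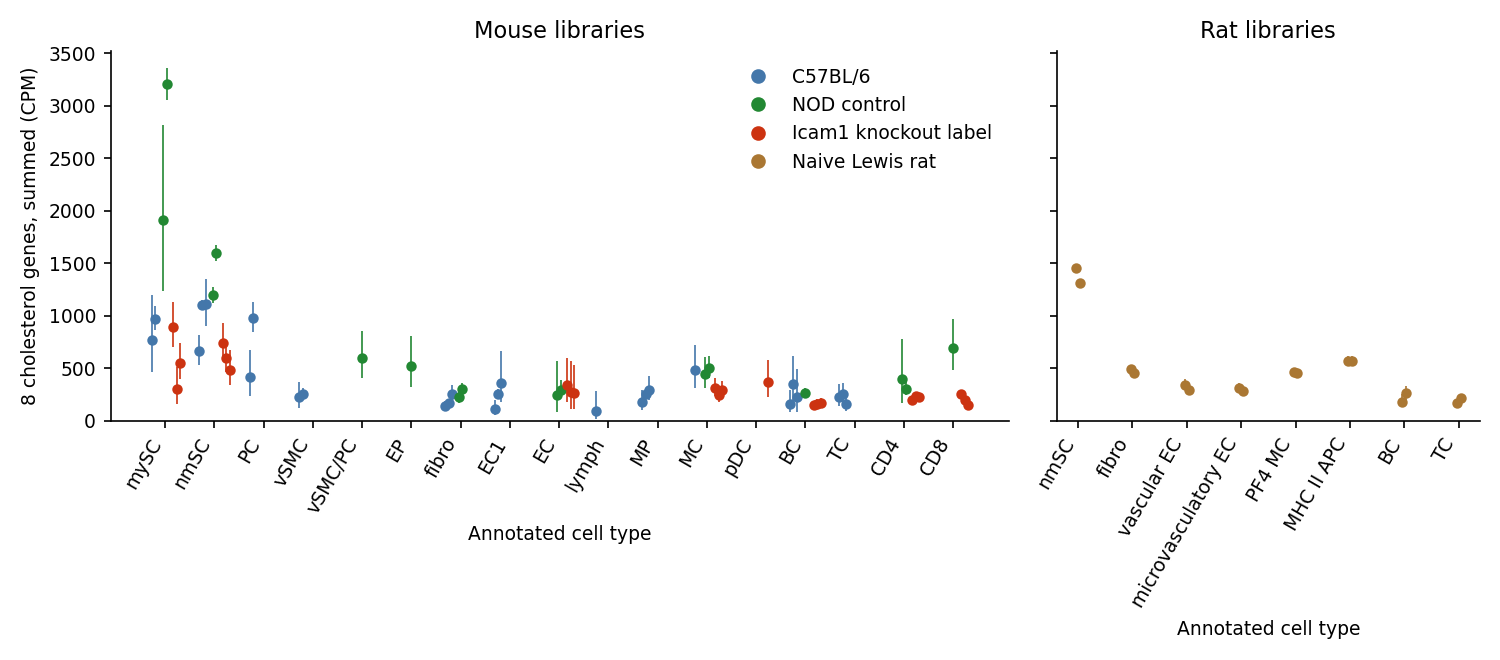
Summed level of the 8 genes (CPM, vertical axis) in each annotated cell type with at least 20 cells, mouse on the left and rat on the right, 1 point per sample with its exact 95% Poisson interval. In NOD control the mySC samples reach 1909 and 3206 CPM, and in rat the nmSC samples (1450 and 1308) stand above all other types.

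The Schwann names were checked against marker lists. Cells called mySC had 2619 to 4020 CPM of the pan Schwann list (among them Sox10, S100b, Erbb3 and Cdh19), with 4 or 5 of the 5 genes detected. Cells called nmSC had 108 to 325 CPM of that list in mouse and 68.1 and 74.5 in rat, against 45070 to 92690 and 41550 to 46950 CPM of the pan fibroblast list (Dcn, Lum, Col1a1, Col1a2, Col3a1, Pdgfra). The nmSC label therefore goes against these markers, and the name is used below only as the authors' cluster name. In mouse the nonmyelinating Schwann list (among them Ngfr, Ncam1 and L1cam) was higher in mySC, at 535 to 2619 CPM, than in nmSC, at 116 to 288. Of 1289 mySC, 933 had under 2% of their UMIs from a list of myelinating Schwann genes. The name mySC is thus also kept only as the authors' cluster name.

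Single members showed where in the pathway the levels lay. In NOD control mySC, Msmo1 averaged 621 ± 122 CPM, Fdps 605 ± 8.20 and Hmgcs1 524 ± 308 (n = 2 each), while C57BL/6 mySC had 254 ± 16.5, 164 ± 60.8 and 115 ± 48.2 (n = 2). Every enzyme had its highest NOD control mean in mySC and, except for Cyp51, its next highest in nmSC. Cyp51 was at 153 ± 109 CPM in mySC, 81.4 in the 1 CD8 sample and 65.8 ± 9.72 in nmSC.

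Insig1 was spread more evenly. Its NOD control means were 153 ± 109 CPM in mySC, 153 ± 26.9 in nmSC and 130 ± 13.01 in MC, which overlapped, and the lowest was 44.4 ± 6.74 in CD4 (n = 2 each). In C57BL/6 the highest 3 means were 161 ± 114 in mySC, 156 in the single MC sample and 119 ± 22.3 in nmSC. As a share of the UMIs of all 8 genes, Insig1 gave 7.14% in NOD control mySC and 10.9% in nmSC, but 26.1% in MC. In C57BL/6 it gave 9.69% in mySC, 19.7% in fibro, 31.9% in TC and 37.9% in BC, pooled over libraries. Single C57BL/6 libraries differed by more than that. Insig1 was 31.6% of 19 UMIs in mySC of C57BL/6 1 and 8.31% of 301 in C57BL/6 3, with 0 of 19 in C57BL/6 4. It ran from 16.6% to 43.1% in fibro, 15.8% to 70% in TC and 33.3% to 45.5% in BC.

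The rat cells had another makeup. Idi1 was at 465 and 402 CPM and Insig1 at 373 and 330 in nmSC of rats 1 and 2, and together they made up 57.0% of the 8 genes' UMIs there, against 17.5% in C57BL/6 nmSC (13.3% to 25% in its 3 samples). In rat fibro the pair made up 69.8% and in PF4 MC 69.4%, of which Insig1 alone was 46.6% and 53.2%. Fdft1 lay at the other end, with 26.4 and 25.1 CPM in rat nmSC. The other rat nmSC levels were Msmo1 138 and 126, Hmgcs1 129 and 135, Cyp51 112 and 96.6, Sqle 108 and 98.2, and Fdps 99.1 and 94.99 CPM. Species, gene models, cell preparation and sorting all differed between the rat and mouse libraries, and their part in this difference cannot be told apart.

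**Figure D2:**
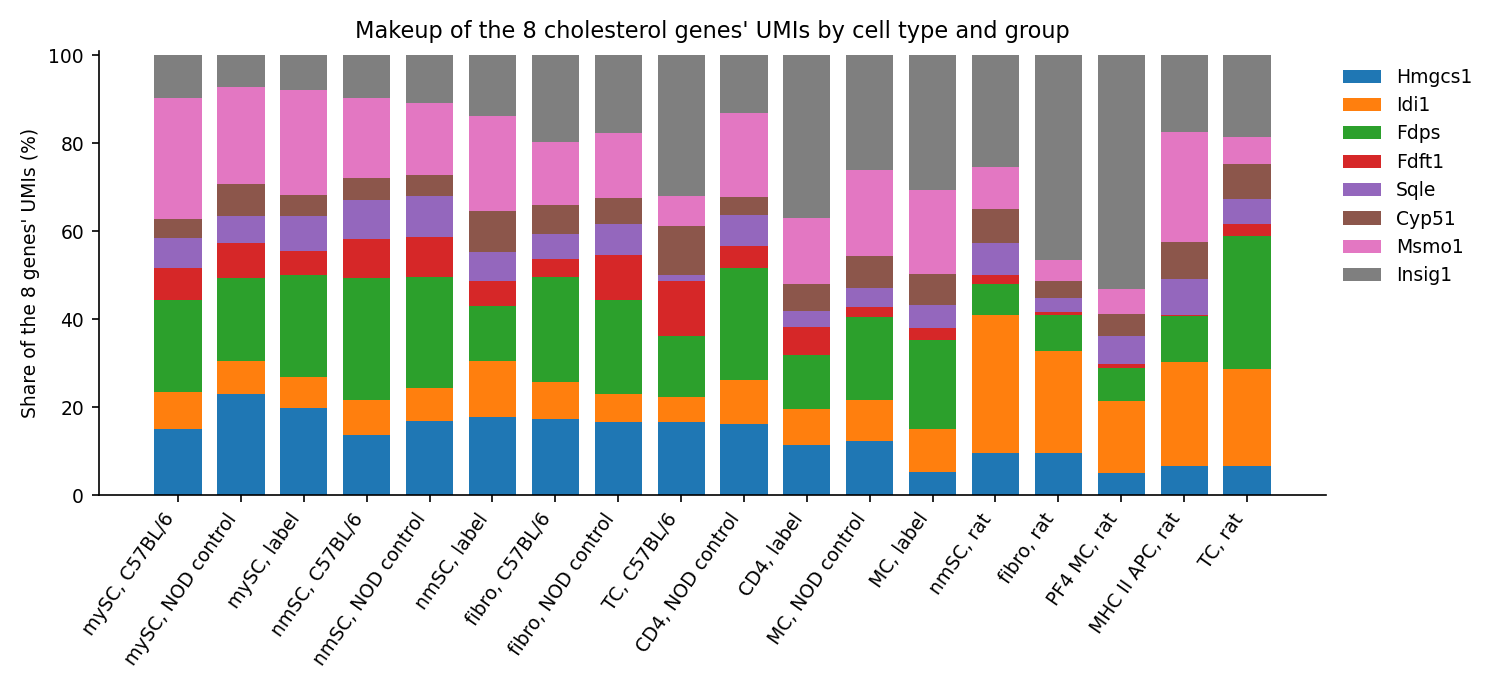
Share of the 8 genes' summed UMIs (%, vertical axis) taken by each gene, by cell type and group, with counts pooled over the samples of a group. Idi1 and Insig1 together take 57.0% in rat nmSC and 17.5% in C57BL/6 nmSC.

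Across 63 mouse sums of 1 type in 1 sample, each member's log2(CPM + 10) was set against that of the other 7. Pearson's r was 0.756 for Msmo1, 0.739 for Fdps, 0.730 for Sqle, 0.669 for Hmgcs1, 0.584 for Idi1, 0.481 for Fdft1, 0.446 for Cyp51 and 0.373 for Insig1. These sums share libraries and differ in depth, so r is given as a description. Among 2979 other genes with a mean of at least 50 CPM, those nearest to the sum of the 8 were Matn2 (r = 0.717), which encodes a matrix protein, Sema3b (0.699), a semaphorin, and Aspa (0.697), the aspartoacylase. Laptm4b (0.677), Vwa1 (0.677), Rab34 (0.657), G0s2 (0.654), Abca8a (0.647), S100b (0.636), a Schwann marker, and Scn7a (0.627), a sodium channel gene, completed the 10. By Spearman's rank correlation only 2 of these 10 stayed among the first 10.

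The question put to the NOD libraries was how cells of the labelled knockout differ from NOD control. In mySC, 4 members passed the filter on low counts and all 4 were lower under the label, in a set where 5.79% of the 1711 genes tested were lower. A gene passes with enough counts in 2 samples, so 2 high NOD controls suffice. Idi1 passed through them alone, and Fdps and Hmgcs1 would not have passed on the labelled libraries alone. How many tested members were lower is therefore partly set by the filter. Msmo1 was at 535 and 707 CPM in NOD control 1 and 2 and at 189, 114 and 130 CPM in labelled libraries 1, 2 and 3. Fdps was at 611 and 599 CPM against 226, 45.7 and 117. Hmgcs1 was at 306 and 742 CPM against 239, 45.7 and 52.0.
In all 3 enzymes each labelled library lay below both controls, though how many of all genes do so was not counted. Idi1 was at 153 and 238 CPM against 25.2, 45.7 and 64.9, again without overlap. The log2 differences were -2.38 ± 0.35 for Msmo1 (SE; edgeR quasi-likelihood, adjusted p = 5.488e-05), -2.29 ± 0.39 for Fdps (0.000334), -2.60 ± 0.46 for Idi1 (0.000452) and -2.63 ± 0.47 for Hmgcs1 (0.000481). Their median was -2.49, beside 0.02 for all genes tested. Idi1 lost its call with DESeq2 (adjusted p = 0.227) and, in edgeR, with the replicate number as a block (0.0659). Hmgcs1 lost its call with DESeq2 too.

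The 4 members that did not pass that filter were low in NOD control 1, whose mySC gave 13094 UMIs in all from 20 cells, against 740 cells in NOD control 2. Fdft1 was at 76.4 and 259 CPM against 62.9, 22.8 and 12.99, and Cyp51 at 76.4 and 230 against 25.2, 0 and 52.0, both without overlap. Sqle (76.4 and 200 against 37.7, 0 and 90.9) and Insig1 (76.4 and 230 against 88.01, 22.8 and 26.0) overlapped. In NOD control 1 each of these 4 values rests on 1 UMI.
The result rests on NOD control 2. Without it 3 members could be tested and 0 were called, with log2 differences of -1.11 for Hmgcs1 (adjusted p = 0.647), -1.88 for Fdps (0.208) and -1.62 for Msmo1 (0.249). Without NOD control 1 all 8 were tested, with Idi1 at -2.69. That fit leaves 1 control sample, which is assumed to vary as the labelled libraries do, and the same holds below wherever a NOD control is left out. Without labelled library 3 only Msmo1 remained lower of 3 tested, with Fdps at -2.17 (adjusted p = 0.0515) and Hmgcs1 at -2.22 (0.0895), and without labelled library 1 the 3 that could be tested were lower.

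**Figure D3:**
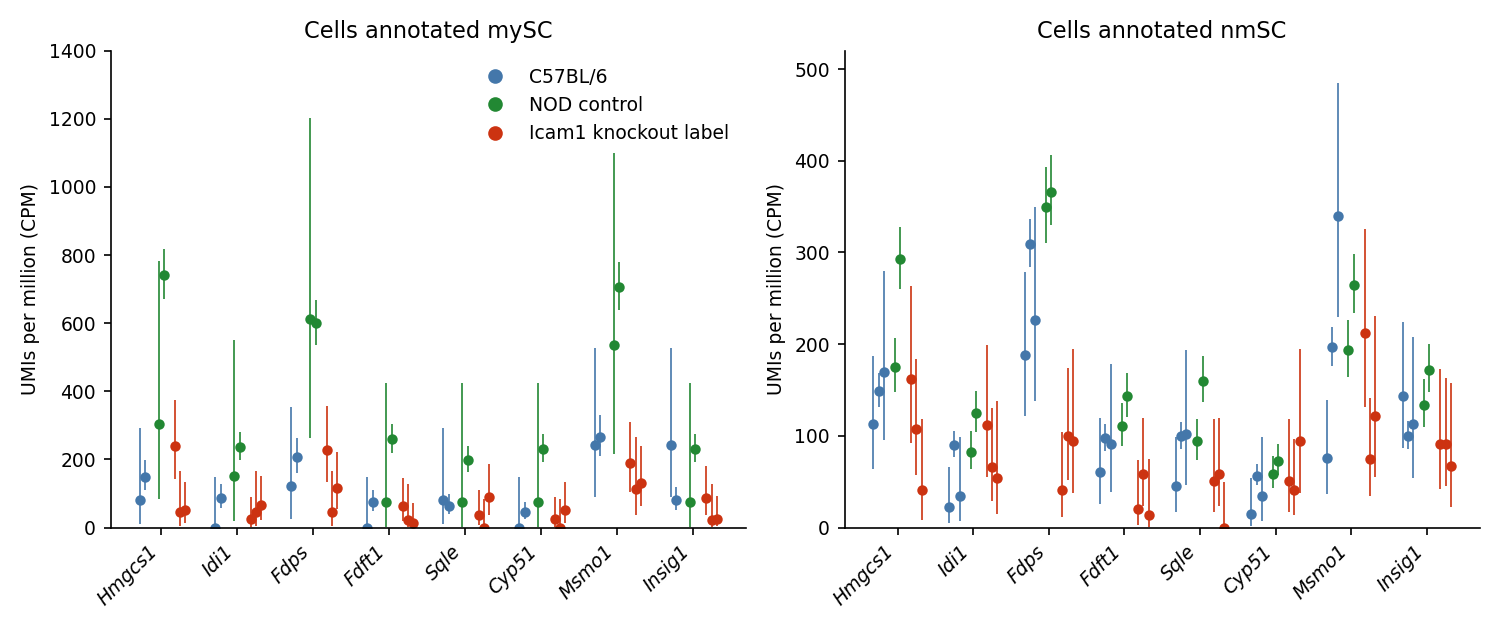
Level of each of the 8 genes (CPM, vertical axis) in mySC and nmSC, 1 point per sample, coloured by group, with bars for exact 95% Poisson intervals. C57BL/6 4 is not shown in mySC, where it had 7 cells. In mySC the labelled samples lie below both NOD controls for 6 of the 8 genes, and in nmSC for 5 of 8. The share of all genes that separate in this way was not counted, so these counts are no result about the members.

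Myelin transcripts moved with this result. The myelinating list (among them Mbp, Pmp22, Mag, Prx, Ncmap, Drp2 and Egr2) summed to 34520 and 51240 CPM in mySC of the NOD controls, with 8 of 8 genes detected, and to 10660, 6624 and 6740 CPM in the labelled libraries, with 7 or 8 detected. C57BL/6 1 and 3 had 7012 and 6625 CPM. Mitochondrial transcripts stood at 6950 and 13050 CPM in control mySC and at 24720 to 28450 under the label, while the immediate early (dissociation) list stood at 15210 and 16040 against 9618 to 11400. In the fit, 6 of 7 tested myelinating genes were lower, 3 of 8 mitochondrial genes higher and 3 of 10 immediate early genes lower, beside the 5.79% of all genes that were lower.
Fibroblast markers differed too. The epineurial fibroblast list stood at 611 and 1013 CPM in control mySC, with 1 and 6 of its 6 genes detected, and at 0, 0 and 12.99 CPM under the label. Its 1 tested gene, Mfap5, was lower, as was the 1 tested perineurial gene. The pan fibroblast list stood at 4430 and 3593 CPM against 2947 to 3608, with 2 of 5 tested genes lower (Lum and Dcn) and 1 higher. Of 3 tested nonmyelinating Schwann genes 1 was higher, Ngfr (1.14, adjusted p = 0.0330). The part of mitochondrial, immediate early and fibroblast transcripts in the result was not tested.

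The mySC were therefore split by the share of each cell's UMIs that came from the myelinating list, a choice made after the values were seen. Of 1289 cells, 933 had under 2%, 30 had 2 to 4% and 326 had 4% or more. The 8 genes summed to 1525 CPM (exact Poisson 95% interval 1376 to 1686) in the 415 low cells of NOD control 2 and to 4655 CPM (4411 to 4910) in its 306 high cells. In NOD control 1 the low cells had 1408 CPM (750 to 2408) and the 5 high cells 3108 (1606 to 5429), intervals that overlap. Labelled library 1 went from 677 to 3361 CPM, the latter in 6 cells, and library 3 from 412 to 2197, in 3 cells. In 4 of the 4 samples on NOD with both kinds of cell, the sum was higher in the myelin-rich cells. Intervals cover counting error only.

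The groups held unlike numbers of such cells. Cells at 4% or more were 25% and 41.4% of mySC in NOD control 1 and 2, 13.04%, 0% and 6.00% in the labelled libraries, and 0% in C57BL/6 1 and 3. C57BL/6 4, with 7 mySC in all, had 6 such cells at 3827 CPM.
With only the cells under 2%, the 8 genes summed to 1408 and 1525 CPM in NOD control against 677, 271 and 412 under the label and 766 and 963 in C57BL/6 1 and 3. In that fit 2 members could be tested and 1 was lower, where 2.53% of all genes were. Msmo1 fell by 1.55 ± 0.41 (edgeR adjusted p = 0.0183), and Fdps had a log2 difference of -1.42 ± 0.47 (0.0744). The label's difference was thus smaller, by the point estimates, among cells low in myelin transcripts than over all mySC, a change that was not tested.

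**Figure D4:**
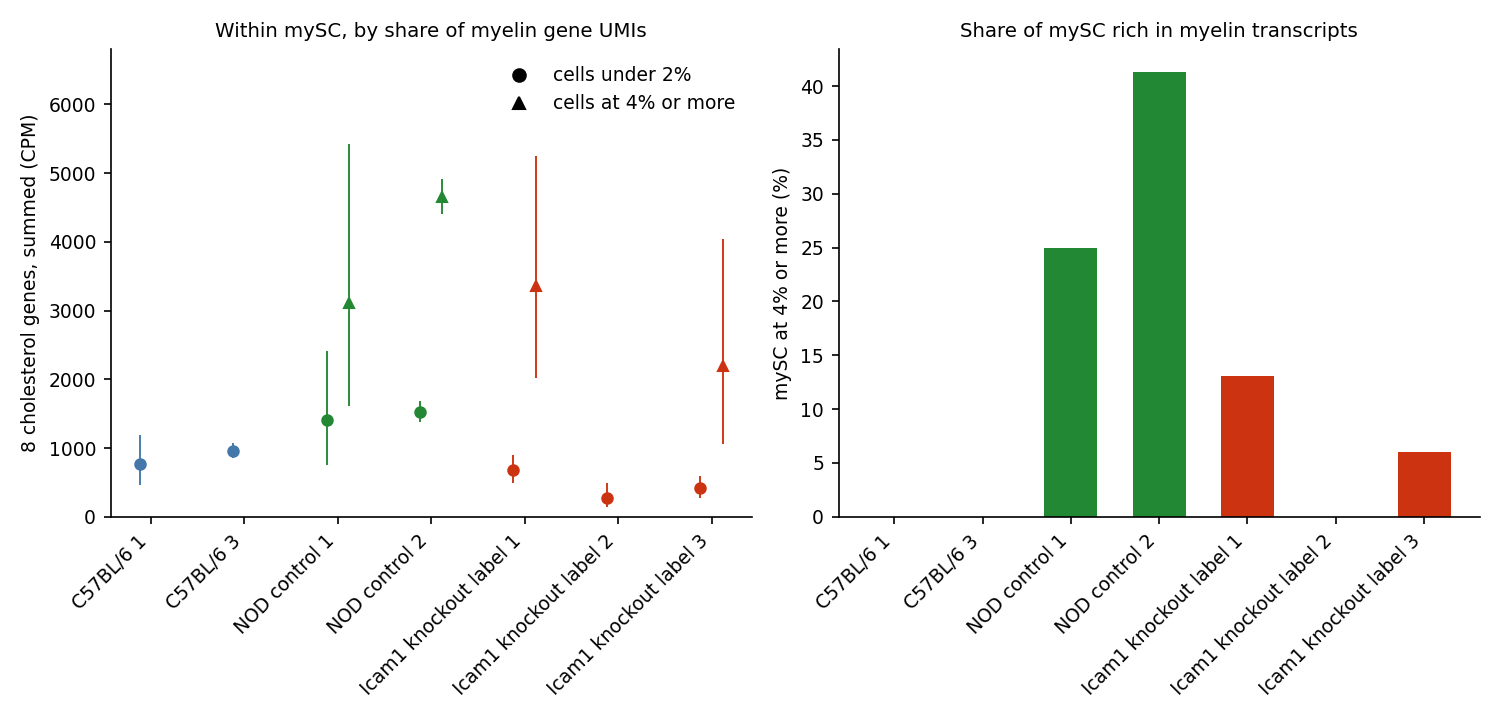
Left, summed level of the 8 genes (CPM) in mySC of each sample except C57BL/6 4, with exact 95% Poisson intervals. Cells with under 2% and with 4% or more of their UMIs from myelin genes are apart. C57BL/6 4, not shown in either panel, had 6 cells at 4% or more (85.7% of its mySC). Right, the percentage of mySC at 4% or more, which was 25% and 41.4% in NOD control and 0% to 13.04% under the label.

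In nmSC, 7 members passed the filter and 2 were lower under the label, in a set where 1.52% of the 2101 genes tested were lower. Fdft1 and Sqle passed that filter only through the NOD controls. Fdps was at 350 and 366 CPM in NOD control and at 40.5, 99.5 and 94.4 in the labelled libraries, with 189, 310 and 227 in C57BL/6 1, 3 and 4. Fdft1 was at 110 and 143 CPM against 20.3, 58.0 and 13.5, with 60.4, 97.2 and 90.6 in C57BL/6. Neither gene's groups overlapped between control and label. Fdps fell by 2.22 ± 0.30 (edgeR adjusted p = 0.00294) and Fdft1 by 1.93 ± 0.46 (0.0352).

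The other 5 tested members did not pass. Their log2 differences were -1.68 for Sqle (adjusted p = 0.0988), -1.15 for Hmgcs1 (0.126), -0.88 for Insig1 (0.132), -0.79 for Msmo1 (0.240) and -0.44 for Idi1 (0.566), and the median of the 7 was -1.15 beside 0.02 for all genes. The labelled samples of Sqle (50.6, 58.0 and 0 CPM against 94.0 and 160), Hmgcs1 (162, 108 and 40.5 against 176 and 293) and Insig1 (91.2, 91.2 and 67.4 against 134 and 172) lay below both controls. How many of all genes do so was not counted. Msmo1 (213, 74.6 and 121 against 193 and 265), Idi1 (111, 66.3 and 54.0 against 82.8 and 125) and Cyp51 (50.6, 41.4 and 94.4 against 58.9 and 72.7) overlapped. Cyp51 did not pass the filter.
The call for Fdft1 was lost without any single labelled library, with adjusted p = 0.315, 0.100 and 0.172 without libraries 1, 2 and 3, and with the replicate number as a block (0.0638). Without NOD control 1, a fit with 1 control sample, Idi1 was at -0.75. Mitochondrial transcripts in nmSC were at 6279 CPM in NOD control 1, 23580 in NOD control 2 and 24430 to 27490 under the label. The immediate early list was at 8665 and 11770 CPM against 15970 to 17110. In the fit, 2 of 8 mitochondrial, 2 of 10 immediate early and 1 of 6 endoneurial fibroblast genes were higher and 1 of 6 pan fibroblast genes was lower. Their part in the result was not tested.

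Whether the label's difference was larger in mySC than in nmSC was tested directly, as an interaction over 2429 genes. Of 7 members tested, 0 passed (edgeR; DESeq2 was not run for it), where 4.73% of all genes did in either direction, and 3 members had an unadjusted p under 0.05. Msmo1 came nearest, with -1.44 ± 0.48 on the log2 scale (adjusted p = 0.0535). Idi1 was at -1.86 (0.117), Hmgcs1 at -1.21 (0.207) and Fdps at 0.02 (0.995). Without NOD control 1, which leaves 1 control sample, Msmo1 was at -1.52.

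Immune cells showed the same sign in single genes. In lymphoid cells (CD4, CD8 and BC together) all 8 members passed the filter and 4 were lower under the label, where 8.86% of 8999 genes were lower. Fdps was at 175 and 71.3 CPM in NOD control against 30.9, 30.1 and 18.4, and fell by 1.72 ± 0.28 (edgeR adjusted p = 9.832e-08). Msmo1 was at 0 and 49.99 CPM against 29.7, 30.1 and 26.9, and Hmgcs1 at 35.0 and 41.5 against 23.3, 23.3 and 24.9. Sqle was at 0 and 19.1 CPM against 6.99, 6.14 and 10.5.
Msmo1 and Sqle therefore overlapped, and NOD control 1 gave only 28549 UMIs from 49 lymphoid cells. Msmo1 fell by 0.96 (adjusted p = 0.0146), Hmgcs1 by 1.01 (0.0166) and Sqle by 1.46 ± 0.50 (0.0257). Fdft1 (-0.88, 0.144), Cyp51 (-0.84, 0.170), Idi1 (-0.69, 0.232) and Insig1 (0.19, 0.695) did not pass, and the median of the 8 was -0.92 beside 0.03 for all genes.

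Of these 4, Fdps alone was lower with total counts in place of TMM scaling, with DESeq2 and in CD4 cells alone. Without NOD control 2, 0 members were called, with Fdps at -2.21 (adjusted p = 0.216), Hmgcs1 at -0.06 (0.982) and the signs of Msmo1 (8.16), Sqle (6.28) and Fdft1 (7.15) reversed. With the replicate number as a block 0 were called as well (Fdps adjusted p = 0.104). Sqle was also lost without labelled library 1 (0.0672) or 2 (0.0774), and Msmo1 (0.0503) and Sqle without library 3. B cells were 14.3% and 60.5% of lymphoid cells in NOD control 1 and 2 and 24.2% to 26.0% under the label, and CD8 cells 6.12% and 3.80% against 28.9% to 29.5%. In the lymphoid fit 6 of 6 T cell markers were higher under the label and 4 of 5 B cell markers lower, 4 of 4 red blood cell and 3 of 4 NK cell genes were higher, and 5 of 5 tested pan fibroblast, 4 of 5 tested myelinating and 2 of 2 tested endothelial genes were lower. The T cell list stood at 1086 and 2029 CPM in NOD control against 7055 to 7277, the NK cell list at 245 and 118 against 369.8 to 468, and the pan fibroblast list at 1226 and 2002 against 279 to 403. Mitochondrial transcripts stood at 6970 and 18600 CPM against 23610 to 25020, with 3 of 8 genes higher, and immediate early ones at 16500 and 8085 against 9880 to 10850, with 2 of 10 lower. Their part in the result was not tested.
Free RNA, released from other cells and caught in droplets, also differed. From the myelin and fibroblast genes seen in lymphoid cells, mySC and nmSC were predicted to add 99.0 of the 298 CPM of the 8 genes in NOD control 2 and 23.8 of 385 in NOD control 1, but 6.30 to 13.6 of 188 to 203 under the label. After that prediction was subtracted, a step added after the values were seen, Fdps fell by 1.46 ± 0.31 (edgeR adjusted p = 0.000143) as 1 of 8 members, where 7.62% of all genes were lower. In mySC and nmSC the same prediction was made from the profile of the other cluster. It was 24.8 and 69.6 of 1199 and 1598 CPM in control nmSC and 67.0 and 87.96 of 1909 and 3206 CPM in control mySC. It cannot show free RNA of a cluster's own kind, and no fit with it subtracted was run there, so its part was not tested.

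In CD4 cells the labelled libraries had 57.5, 87.9 and 96.9 CPM of Insig1 and the NOD controls 49.1, from 1 UMI, and 39.6. Of the 8 members there, 1 lay above both controls in all labelled libraries (Insig1), 3 lay below and 4 overlapped. The share of all genes that separate in this way was not counted, so these counts are no result about the members. CD4 cells of NOD control 1 gave 20356 UMIs from 39 cells. Insig1 was not tested against the enzymes. In joint fits of CD4 with nmSC, 0 of 8 members passed (edgeR, 1 at an unadjusted p under 0.05; DESeq2 was not run), where 1.05% of all genes did. With MC in place of nmSC, 0 of 3 tested members passed (1 at an unadjusted p under 0.05; DESeq2 was not run), where 2.55% did.

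In myeloid cells (MC and pDC) 4 members passed the filter and 1 was lower under the label, where 8.28% of 3514 genes were. This member, Hmgcs1, passed the filter only through the NOD controls. Hmgcs1 was at 56.1 and 73.3 CPM in NOD control and at 13.01, 17.8 and 14.3 in the labelled libraries, with no overlap, and fell by 2.28 ± 0.57 (edgeR adjusted p = 0.0122). Msmo1 was at -1.11 (0.0873), Fdps at -1.03 (0.126) and Insig1 at -0.67 (0.180). With predicted free RNA subtracted Hmgcs1 fell by 2.00 ± 0.60 (0.0370), where 8.5% of genes were lower. The call did not hold without NOD control 1 (-2.44, adjusted p = 0.0697) or without NOD control 2 (-1.99, 0.364), nor with the replicate block (0.0828). The myeloid list stood at 32430 and 27170 CPM in NOD control against 13520 to 17640, with 4 of 6 genes lower, and the T cell list at 33.7 and 97.8 against 199.9 to 470.3, with 3 of 5 tested genes higher. Immediate early transcripts stood at 13960 and 15430 CPM against 6518 to 9928, with 8 of 10 genes lower, and mitochondrial ones at 6325 and 11640 against 18160 to 20020, with 3 of 8 higher. Their part in the result was not tested. In EC, from 26 to 238 cells a sample, 0 of the 8 members passed the filter, and fibro was not tested because a labelled library held 4 such cells.

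**Figure D5:**
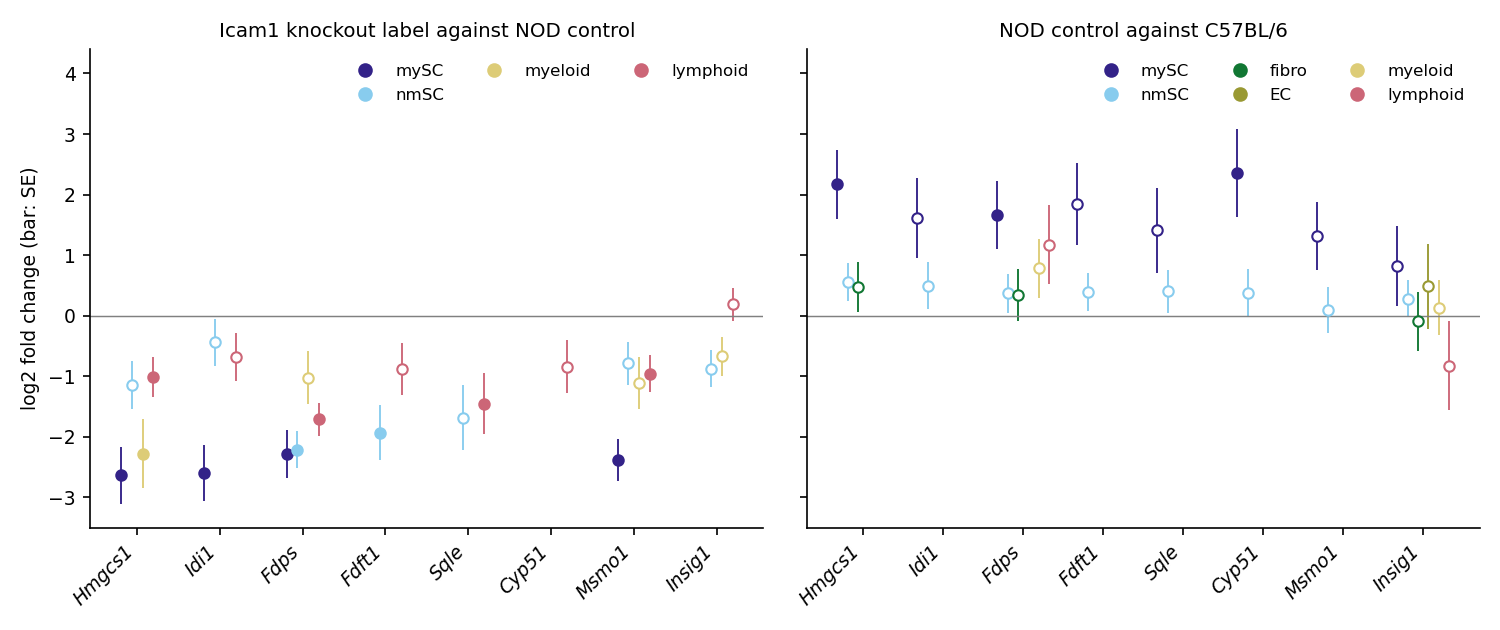
Log2 fold changes (vertical axis, bars are SE) of the 8 genes by cell set, for the labelled knockout against NOD control and for NOD control against C57BL/6, with filled points where the edgeR adjusted p is under 0.05. The tested members are below 0 under the label in mySC and nmSC, and 4 in mySC and 2 in nmSC pass.

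Scaling mattered for the genome as a whole. With total counts as library size the median over all genes moved to 0.29 in mySC, 0.21 in myeloid and 0.23 in lymphoid cells, and the share of called genes that were higher went from 49.2% to 68.6%, from 49.5% to 65.1% and from 54.3% to 70.9%. The 4 mySC members, both nmSC members and Hmgcs1 in myeloid cells were lower under that scaling too.

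Other genes of sterol metabolism were read from lists that were drawn up with earlier results known. In lymphoid cells Srebf2, which encodes the main SREBP of cholesterol synthesis, was at 35.0 and 79.8 CPM in NOD control and at 48.9, 45.5 and 43.3 under the label, so that the groups overlapped. It fell by 0.99 ± 0.25 (edgeR adjusted p = 0.00105), while Srebf1, its paralogue for fatty acid synthesis, was at -0.06 (0.949).

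On the efflux side of the same lymphoid cells, 9 of 15 genes were tested, with 2 higher and 1 lower, where 10.5% of all genes were higher and 8.86% lower. Abcg1, a transporter that exports cholesterol and a target of the oxysterol receptor LXR, was at 0 and 26.6 CPM in NOD control against 129, 136 and 150 under the label. It was higher by 2.19 ± 0.28 (edgeR adjusted p = 2.654e-11). Mylip, an LXR target that encodes a ubiquitin ligase, was at 35.0 and 12.8 CPM against 48.3, 40.5 and 47.2 and was higher by 1.52 ± 0.41 (0.00249). Apoe, the lipoprotein component, was the gene called lower (-0.83 ± 0.28, 0.0199). It falls outside the rule for naming genes and was added after its value was seen. Its call was lost without any single labelled library (adjusted p = 0.197 to 0.351), and its sign reversed to 0.75 without NOD control 2.
In CD4 cells alone Abcg1 (1.41, adjusted p = 0.0236) and Mylip (2.93, 0.00377) kept their calls, and Srebf2 did not (-0.54, 0.474). Without NOD control 2 the call of Mylip (0.87, 0.718) was lost and Srebf2 reversed to 0.89. Of 6 fatty acid genes tested in lymphoid cells 1 was lower, where 8.86% of all genes were, the desaturase gene Scd1 (-0.77 ± 0.20, 0.00222), which reversed to 9.64 without NOD control 2. Of Abcg1, Srebf2, Mylip and Scd1, the replicate block left Abcg1 called (adjusted p = 0.0234), as did DESeq2 (0.0136).

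In mySC 1 of 16 other enzymes could be tested and it was lower, where 5.79% of all genes were. This was Pmvk (phosphomevalonate kinase, -1.80 ± 0.44, edgeR adjusted p = 0.00726). As for the members, 2 high NOD controls suffice to pass the filter. How many tested genes of these lists were lower is therefore also partly set by it. Srebf2 was the only sterol control gene tested and fell by 2.22 ± 0.60 (0.0173). Of 4 fatty acid genes tested 2 were lower, where 5.79% of all genes were. They were the elongase gene Elovl6 (-3.02 ± 0.80, 0.0151) and the desaturase gene Scd2 (-1.05 ± 0.30, 0.0262). The desaturase gene Scd1 had the other sign and did not pass (1.56 ± 0.60, 0.101). With only mySC low in myelin transcripts Scd2 was at -0.37 (0.646). With the replicate number as a block none of Pmvk, Srebf2, Elovl6 and Scd2 kept its call (adjusted p = 0.149 to 0.689). Without NOD control 2 Scd2 was at -0.22 (0.860) and the other 3 could not be tested. Scd2 also lost its call without labelled library 2 (0.0765) or 3 (0.228).
In nmSC 2 other enzymes were tested, with 0 called, and 3 sterol control genes, with 1 higher, where 2.38% of all genes were. Insig2, the paralogue of Insig1, was at 85.3 and 80.6 CPM in NOD control and at 172, 216 and 175 under the label, and was higher by 1.17 ± 0.26 (edgeR adjusted p = 0.0298), a call lost without any single labelled library (adjusted p = 0.140 to 0.283). Srebf2 was at -0.91 (0.214). Srebf1 did not pass the filter in mySC or nmSC.

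In myeloid cells 9 of 15 genes of the efflux and uptake list were tested, with 1 higher and 2 lower, where 8.11% of all genes were higher and 8.28% lower. Abcg1 was higher by 2.58 ± 0.61 (edgeR adjusted p = 0.00852), as in lymphoid cells. Lpl, lipoprotein lipase, fell by 3.79 ± 0.49 (7.061e-05) and Lrp1, an endocytic receptor of lipoproteins, by 1.78 ± 0.47 (0.0178), the latter lost without NOD control 2 (0.360) and with the replicate block (0.0675). In EC 1 of 2 genes of that list was lower, where 1.49% of all genes were. This was Apoe (-1.32 ± 0.25, 0.00715), a call lost without labelled library 1 (0.142) and without EC holding markers of another class (-0.58, 0.341). The EC sets held other cells' transcripts to unlike degrees. The lymphatic endothelial list stood at 10830 and 870.3 CPM in NOD control and at 0 in all 3 labelled libraries, and the pan fibroblast list at 5242 and 2488 CPM against 172 to 301, with 2 of 2 tested genes lower. Their part in the result was not tested, and 0 of 6 endothelial genes were called.

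The second comparison set NOD control against C57BL/6, and it shares the NOD control samples with the first. In nmSC all 8 members were tested and 0 passed (edgeR and DESeq2, with 0 at an unadjusted p under 0.05), where 2.28% of 7691 genes did. All 8 point estimates lay above 0, from 0.09 for Msmo1 (adjusted p = 0.975) to 0.56 for Hmgcs1 (0.611), although Msmo1 turned to -0.20 without C57BL/6 1 and -0.07 without NOD control 2. In fibro 3 members were tested, in EC 1, in myeloid cells 2 and in lymphoid cells 2, again with 0 called by either tool and 0 at an unadjusted p under 0.05. The shares of all genes called there were 1.82%, 1.96%, 1.3% and 1.79%. With total counts in place of TMM, the share of called genes that were higher in NOD control went from 60.6% to 73.2% in nmSC, 51.7% to 62.5% in fibro, 50% to 65.8% in myeloid and 42.9% to 59.6% in lymphoid cells, and 0 members were called. Apoe was higher in NOD control by 3.82 ± 0.47 in nmSC (edgeR adjusted p = 4.507e-05) and by 2.86 ± 0.48 in fibro (0.00367).

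For mySC the strain test could be made only without C57BL/6 4, which had 7 such cells, and it was added after the values were seen. With 2 samples against 2, 3 of 8 members were higher in NOD control, where 3.87% of 3021 genes were. Hmgcs1 was at 80.6 and 149 CPM in C57BL/6 1 and 3 and 306 and 742 in NOD control, and was higher by 2.17 ± 0.57 (edgeR adjusted p = 0.00383). Cyp51 (0 and 45.3 CPM against 76.4 and 230) was higher by 2.35 ± 0.73 (0.0218), and Fdps (121 and 207 against 611 and 599) by 1.66 ± 0.56 (0.0473). Cyp51 passed the filter only through the NOD controls, so its call is partly set by the filter. Its 76.4 CPM in NOD control 1 rests on 1 UMI. None of these 3 overlapped between the strains, but the share of all genes that separate so was not counted.
Msmo1 (1.31, 0.171), Idi1 (1.61, 0.147), Fdft1 (1.84, 0.0761), Sqle (1.41, 0.277) and Insig1 (0.83, 0.684) did not pass. Leaving out 1 more sample left 0 to 2 members called: 2 without NOD control 1, 1 without C57BL/6 3, and 0 without NOD control 2 or C57BL/6 1. With only cells under 2% of myelin transcripts 0 of 8 passed (edgeR, with 0 at an unadjusted p under 0.05; DESeq2 was not run), where 1.99% of 2616 genes did in either direction, and the 8 differences ran from -0.01 for Idi1 to 1.04 for Hmgcs1 (adjusted p = 0.804).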

How the data were processed

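Single-cell 3′ RNA was measured (10x version 2 chemistry, per the labels' protocols). The deposited values are UMI counts per gene and barcode, made by the authors with Cell Ranger 3.0.2 on mm10 and Rnor_6.0, per the submitters' processing notes. No annotation release, clustering method, doublet removal or free RNA correction is stated in the sources used here. Only barcodes with the authors' cell type were used.

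Summing of counts over the cells of a set in each sample, and intervals, used scipy 1.17.1, pandas 2.3.3 and numpy 2.4.6 (Python 3.11.15). A set was tested where each sample had at least 20 cells. Tests used edgeR 4.0.16 in R 4.3.3 (quasi-likelihood, TMM, filterByExpr minimum count 10, no covariates, Benjamini-Hochberg over all genes tested in a set, threshold 0.05), checked on simulated data. The filter asks for enough counts in as many samples as the smaller group has, so a gene high in 1 group alone can pass. The interaction of label and cell set had the sample as block. Free RNA was predicted per sample from the myelinating Schwann and pan fibroblast lists. DESeq2 1.42.0, other scalings, filters, cell selections, the replicate block and leaving out each sample were alternatives. Doublets were not called, but the 5% of cells with most UMIs were left out as an alternative. Replicate numbers were not taken as pairs: only 2 are shared, and same-numbered samples correlated at 0.11 and -0.02 in nmSC and -0.03 and 0.00 in mySC.

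Named were all members, list genes past the threshold (up to 6 per set by smallest p), a few genes of sterol control such as Srebf2 and Srebf1 whatever their result, and the 10 genes most like the members. A few list genes picked by this rule are left out of the text. Members and lists were chosen with earlier results of these data known. B cells alone were not tested, since NOD control 1 had 7.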

Additional observations from a re-analysis of the deposited data

Results flagged for a closer look

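For Insig1, every labelled library lay on one side of the NOD controls in CD4 cells and on the other side in nmSC and MC. How many of all genes do so was not counted. In CD4 cells all 3 labelled libraries (57.5, 87.9 and 96.9 CPM) lay above both NOD controls (49.1, from 1 UMI, and 39.6), a ratio of group means of 1.82. In nmSC all 3 lay below both controls, with a ratio of 0.544, and in MC likewise (92.0, 57.6 and 109 CPM against 139 and 121), with a ratio of 0.662. The difference between cell types was then tested in joint fits added after the values were seen. The log2 difference in CD4 exceeded that in nmSC by 1.93 ± 0.68 (edgeR adjusted p = 0.205, where 1.05% of 8010 genes passed), with adjusted p from 0.0259 without NOD control 1 to 0.735 without labelled library 3. It exceeded that in MC by 1.40 ± 0.60 (adjusted p = 0.246, where 2.55% of 4075 genes passed). Of the 8 members' UMIs in CD4, Insig1 gave 13.1% in NOD control and 36.9% under the label. This was not particular to CD4, since it gave 17.4% and 34.7% in BC and 14.7% and 24.1% in CD8. In EC the share went the other way, from 27.3% to 18.5%. C57BL/6 TC had 31.9% and BC 37.9%, all pooled over libraries.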

How the results depend on the processing

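Members called lower under the label numbered 4 in mySC, 2 in nmSC, 1 in myeloid and 4 in lymphoid cells. With DESeq2 they were 2, 1, 0 and 1. With no filter on low counts they were 8 in mySC, 4 in nmSC and 2 in lymphoid cells, while calls over all genes in nmSC rose from 82 to 175. With the 3 labelled libraries summed as 1 sample they were 0 in all 4 sets. Leaving out 1 sample gave 0 to 8 in mySC, 1 to 6 in nmSC, 0 to 1 in myeloid and 0 to 4 in lymphoid cells. The high ends in mySC and nmSC came without NOD control 1, from fits with 1 control sample, and calls over all genes moved too, as given below. With the replicate block the members called were 3, 1, 0 and 0. Without cells holding markers of another class, 0 members were tested in mySC and 0 called in myeloid cells. Myeloid cells also gave 0 with libraries 2-1 and 2-2 apart and without pDC. Lymphoid cells gave 1 with total counts, with CD4 alone and after subtracting free RNA, and mySC low in myelin transcripts gave 1. The interaction of mySC with nmSC gave 0 to 2 members on leaving out 1 sample, against 0, and that of CD4 with nmSC 0 to 1, against 0. The strain comparison in mySC gave 0 to 2, against 3, and 0 in cells low in myelin transcripts. Of the 10 genes most like the members, 2 stayed by Spearman's correlation. In lymphoid cells, log2 differences on leaving out 1 sample ran from -1.49 to 6.28 for Sqle, -0.99 to 8.16 for Msmo1, -1.03 to 0.89 for Srebf2 and -0.81 to 9.64 for Scd1. The positive ends came without NOD control 2, in fits where NOD control 1 stood alone with 28549 UMIs. The cause of these and the other changes was not tested. Of the log2 differences of members and of genes named by the rule, recomputed under an alternative, 868 stayed on their side of the threshold, 120 lost the call, 11 gained it and 4 that had been called changed sign. Of the 868, 37 changed sign without being called. Counts of all genes called moved by over 1.5 times in several fits. The 195 in mySC became 70 with DESeq2, 92 with the block, 98 in cells low in myelin transcripts, 317 with 2-1 and 2-2 apart, 121 with labelled libraries summed, 8 without cells holding other markers and 50 to 403 on leaving out 1 sample. The 82 in nmSC became 53 with DESeq2, 175 unfiltered, 3 summed and 9 to 348. The 576 in myeloid cells became 294, 331 with the block, 225 without cells holding other markers and 256 summed. The 1743 in lymphoid cells became 226, 219 with the block, 744 in CD4 alone, 1106 without cells holding other markers, 167 summed and 262 to 2524. For the strains, 175 in nmSC became 83 with DESeq2, 286 unfiltered and 48 on leaving out 1 sample, 87 in fibro 247 unfiltered and 207 in mySC 52 in cells low in myelin transcripts. No paired strain fit was possible because the strains share 1 replicate number. Depth limits the sets with few cells, above all mySC (13094 UMIs) and lymphoid cells (28549) of NOD control 1.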
